A study of Mus musculus with 12 samples.

Results

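The set described here is the non-coding RNA probes of a mouse expression array, 337 of the 39429 gene probes on it. Members were chosen by annotation and detection: a probe was a member when its annotation carried an NR_ accession, the RefSeq prefix for RNAs with no protein-coding product, and when the scanner software marked it well above background on all 12 arrays. Of the 587 NR_ probes, 337 (57.4%) met that rule, 136 were well above background on no array and 114 on 1 to 11 arrays. The rule used these detection marks and no comparison between groups. A probe read only in some groups could not be a member. The members carry 280 accessions, and RefSeq's gene table named 293 of the probes, for 242 genes. The other 44 probes had no match in that table and keep their accession. They are called unnamed below, which does not mean that the RNA is unknown.

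The RNA is from sorted cells of CD-1 mouse embryos. Nucleic acids were electroporated into the medial telencephalon, the dorsomedial wall of the forebrain vesicle, at E11.5 together with a vector for a nuclear green fluorescent protein (EGFPNLS), and fluorescent cells were sorted 24 hours later, at E12.5. The 4 groups, with 3 independent replicates each, received control siRNAs, siRNA set1 against Dmrt3 and Dmrta2, siRNA set2 against the same pair of genes, or an expression vector for Dmrta2. Dmrt3 and Dmrta2 are DNA-binding transcription factors of the DM domain family, expressed in the dorsomedial telencephalon, and the question was which genes respond to their loss or gain. The control siRNA arrays were the only controls, so the expression vector was compared with siRNA and not with an empty vector, a difference that cannot be told apart from its effect. Whether a replicate was 1 embryo or a pool was not given in the sources used here.

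Long non-coding RNAs are transcripts, often spliced and polyadenylated like messenger RNAs, that are not translated into protein. Some act in cis on the chromosome that makes them, as Xist does when it coats and silences an X chromosome. Many in the developing brain are transcribed beside or across genes for transcription factors, and others are precursors of microRNAs or of small nucleolar RNAs. The members also include transcribed pseudogenes and small structural RNAs. RefSeq classes 177 member probes as lncRNA (153 genes), 91 as transcribed pseudogene (66 genes), 5 as small nuclear RNA, 4 as antisense RNA, 3 as RNase P RNA, 2 each as snoRNA and rRNA, and 1 each as telomerase RNA and RNase MRP RNA. A further 7 probes read NR_ transcripts of 6 genes classed as protein-coding.

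The results turn on 3 long non-coding RNAs, Sox1ot, Pax6os1 and Mir99ahg, whose start regions are printed to show where each transcript begins. Sequences are RefSeq's, build GRCm38.p6, 300 bases each. The capitals mark the 50 bases from the annotated start onwards, and lower case the 250 bases before it. The first window is chr8:12385521-12385820 on the plus strand, the second chr2:105670281-105670580 on the minus strand and the third chr16:77329078-77329377 on the plus strand.
Sox1ot: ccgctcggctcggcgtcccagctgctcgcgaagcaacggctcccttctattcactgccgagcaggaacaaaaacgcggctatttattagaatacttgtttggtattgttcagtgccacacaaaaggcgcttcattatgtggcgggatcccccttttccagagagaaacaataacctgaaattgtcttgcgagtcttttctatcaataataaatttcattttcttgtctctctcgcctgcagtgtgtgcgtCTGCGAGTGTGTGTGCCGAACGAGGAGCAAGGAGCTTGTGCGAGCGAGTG
Pax6os1: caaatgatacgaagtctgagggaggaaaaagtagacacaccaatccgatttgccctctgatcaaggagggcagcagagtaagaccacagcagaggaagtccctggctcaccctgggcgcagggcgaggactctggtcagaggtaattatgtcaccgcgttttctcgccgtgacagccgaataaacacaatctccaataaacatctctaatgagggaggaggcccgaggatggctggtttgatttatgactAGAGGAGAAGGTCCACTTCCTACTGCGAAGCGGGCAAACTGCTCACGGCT
Mir99ahg: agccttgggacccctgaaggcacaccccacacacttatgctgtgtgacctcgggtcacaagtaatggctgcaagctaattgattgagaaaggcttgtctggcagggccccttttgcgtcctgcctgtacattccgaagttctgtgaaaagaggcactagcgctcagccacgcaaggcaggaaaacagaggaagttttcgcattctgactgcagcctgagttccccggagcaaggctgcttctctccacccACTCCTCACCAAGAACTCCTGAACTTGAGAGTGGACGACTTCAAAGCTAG
None of the 3 windows holds ACANTGT, the core of the sequence that DM domain proteins are known to bind (a palindrome, so a match counts for both strands). The RefSeq promoter table covered 137 of the 242 named member genes, and 11 of them (8.03%) hold these letters, against 2329 of 27025 genes in the whole table (8.62%). This is a description of letters and not of binding.

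Mir99ahg is named as the host gene of a microRNA cluster, and another member, Mir100hg, is its counterpart on chromosome 9. Mature microRNAs of both loci are shown because their seeds link the loci, with the seed, bases 2 to 8, in capitals. That of Mirlet7a-2, a let-7 gene inside Mir100hg, is not printed.
miR-99a-5p: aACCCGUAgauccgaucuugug
let-7c-5p: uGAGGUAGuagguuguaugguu
miR-125b-5p: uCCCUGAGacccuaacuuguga
miR-100-5p: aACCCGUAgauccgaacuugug
The miR-99a and miR-100 sequences share the seed ACCCGUA. In GRCm38.p6 they lie at chr16:77598940-77598961 and chr9:41531437-41531458, let-7c-5p at chr16:77599672-77599693, and miR-125b-5p at both chr16:77646279-77646300 and chr9:41581940-41581961, all on the plus strand. In that annotation Mir99a, Mirlet7c-1 and Mir125b-2 lie 40.5, 41.2 and 87.8 kb beyond the end of Mir99ahg, whereas Mir100, Mirlet7a-2 and Mir125b-1 lie inside Mir100hg. The arrays did not measure the mature microRNAs.

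All values are log2 processed signal minus the 75th percentile of the array, and a level is compared only with the same probe's level on other arrays. A difference is the first group's mean minus the second's, on the log2 scale, ± the standard error of a limma fit over 28546 probes well above background on at least 3 arrays. A probe was called at a Benjamini-Hochberg adjusted p under 0.05 over all of them. On the 12 arrays 67.1% to 72.2% of the spots of gene probes were well above background, no spot was saturated, and the number of arrays limits the precision. Dmrt3 read 0.06, 0.33 and 0.68 in the control replicates 1 to 3, −1.13, −0.13 and −0.72 with set1, −0.81, −0.04 and −0.47 with set2, and −0.10, 0.62 and 0.34 in the labelled overexpression arrays. Its siRNA average was 0.90 below control (−0.90 ± 0.26, limma adjusted p = 0.23). Blocking on the slide, which carries the replicate number, took this past the threshold (adjusted p = 0.041). The Dmrta2 probe read 2.72, 2.37 and 2.61 in control, 2.14, 1.84 and 1.89 with set1, 2.41, 2.44 and 1.92 with set2, and 2.10, 2.18 and 1.93 in the labelled overexpression arrays. By this probe the siRNA average gave −0.46 ± 0.15 against control (limma adjusted p = 0.31). The vector's gene was not higher than control where it was delivered (−0.49 ± 0.17, limma adjusted p = 0.86). The labels do not say whether this probe reads the vector's RNA, so each direction drawn from that group is for the arrays labelled overexpression. All 11 telencephalon markers were well above background on every array. Of 11 microglia and macrophage markers, 3 (Tyrobp, Cx3cr1 and Aif1) were called higher in the siRNA average and in the labelled overexpression arrays, and the list's median difference in the siRNA average was 1.20. Its summed signal ran from 2.43 to 6.06 times the 75th percentile in control, 2.31 to 5.88 with set1, 3.56 to 6.54 with set2 and 3.54 to 6.57 with overexpression. Erythroid markers ran from 2.03 to 3.93, 1.81 to 18.7, 3.57 to 7.997 and 5.33 to 11.1 in the same order. Endothelial markers (Tek never well above background) ran from 7.42 to 13.7, 5.67 to 14.1, 7.80 to 13.5 and 7.78 to 14.2. Mesenchyme markers ran from 0.97 to 1.39, 1.83 to 7.04, 1.32 to 1.62 and 1.07 to 1.64, so their set1 sums were all above control. The part of these cells in the results below was not tested. In bulk RNA, fewer cells of a type and less RNA per cell cannot be told apart.

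Mir99ahg, the microRNA host transcript, was the member with the lowest adjusted p of all comparisons. It read −0.24, −0.18 and −0.63 in control replicates 1 to 3. With siRNA set1 it read 0.32, 0.33 and 0.18, and with set2 0.29, −0.05 and −0.02. In the labelled overexpression arrays it read −0.48, −0.94 and −0.59. All 6 siRNA arrays were above all 3 control arrays, and the overexpression arrays lay below every siRNA array but overlapped control. Labelled overexpression was 1.80-fold lower than the siRNA average (−0.85 ± 0.15, limma adjusted p = 0.023), with differences of −0.79, −1.08 and −0.68 on the 3 slides. Against control the siRNA average was 0.52 ± 0.15 higher (limma adjusted p = 0.22) and overexpression 0.33 ± 0.17 lower (−0.33, adjusted p = 1.00), neither past the threshold. Mir100hg, its counterpart, stood at −3.82 ± 0.81 in control, −3.32 ± 0.32 with set1, −3.89 ± 0.24 with set2 and −4.28 ± 0.80 with overexpression (mean ± SD, n = 3), and neither the siRNA nor the overexpression arrays separated from control.

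Sox1ot overlaps the gene of Sox1, a transcription factor of neural progenitors. It read −3.73, −4.32 and −3.99 in control. With set1 it read −4.66, −5.31 and −5.35, and with set2 −4.56, −4.81 and −4.80. In the labelled overexpression arrays it read −3.88, −3.79 and −4.19. Every siRNA array was below every control and every overexpression array, and the last 2 groups overlapped. Overexpression was 1.95-fold above the siRNA average (0.96 ± 0.19, limma adjusted p = 0.038), by 0.73, 1.27 and 0.89 on the 3 slides. The siRNA average was 0.90 below control (−0.90 ± 0.19, limma adjusted p = 0.093), a difference that passed the threshold when the slide was a block (adjusted p = 0.037). The same held for set1 alone (−1.09 ± 0.22, limma adjusted p = 0.11 without the block and 0.043 with it), while set2 gave −0.71 ± 0.22 (adjusted p = 0.24 and 0.088). The difference between overexpression and control was 0.06 ± 0.22. A further probe for the same accession was well above background on 3 arrays only and is no member. It gave 0.58 ± 0.66 for the siRNA average against control and 0.77 ± 0.66 for overexpression against the siRNA average (limma adjusted p = 0.80), so its direction in the first was the opposite, with an error as large as the difference.

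Pax6os1 overlaps Pax6, which encodes a transcription factor of dorsal telencephalic progenitors. It read −3.12, −3.74 and −3.37 in control and −2.89, −3.45 and −3.14 with set1. With set2 it read −2.55, −2.26 and −2.86, and with overexpression −3.79, −3.78 and −3.67. The set2 arrays were above all others, set1 overlapped control, and the overexpression arrays spread by only 0.07 (SD) around −3.74. Overexpression was 1.85-fold below the siRNA average (−0.89 ± 0.18, limma adjusted p = 0.047), by −1.07, −0.92 and −0.67 on the 3 slides. Against control the siRNA average gave 0.55 ± 0.18 (limma adjusted p = 0.33) and set2 alone 0.85 ± 0.21 (adjusted p = 0.14).

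The coding genes that these RNAs overlap were read by their own probes. A Pax6 probe read −0.50, −0.31 and −0.41 in control, 0.23, 1.30 and 0.52 with set1, 0.04, 1.25 and 0.58 with set2 and −0.99, −0.83 and −0.78 with overexpression. Its groups did not overlap in either direction from control, and overexpression was below the siRNA average by 1.52 (−1.52 ± 0.27, limma adjusted p = 0.026). The other Pax6 probe gave −1.28 ± 0.26 (adjusted p = 0.0499), so both passed the threshold. By that probe set1 was also above all control arrays, but set2 and overexpression overlapped control. It read −3.16, −3.79 and −4.09 in control and −2.30, −2.47 and −2.95 with set1. With set2 it read −2.62, −2.80 and −3.46, and with overexpression −4.14, −4.33 and −3.66. A Sox1 probe read 1.32, 1.39 and 1.34 in control, 1.17, 0.75 and 0.24 with set1, 0.86, 1.04 and 0.55 with set2 and 1.39, 1.85 and 1.31 with overexpression. All siRNA arrays were below control there, and overexpression against the siRNA average gave 0.75 ± 0.20 (limma adjusted p = 0.14), not a call. A further Sox1 probe gave −0.09 ± 0.20 for the siRNA average against control. The gene table holds 87 pairs of a member gene and an overlapping gene, from 80 member genes, and the overlapping gene was called between overexpression and the siRNA average in 3 of them, with Ppm1b, Pax6 and Tex14, beside 1.21% of all probes tested. The member and the overlapping gene had the same sign of that difference in 44 of the 87 pairs.

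**Figure D1:**
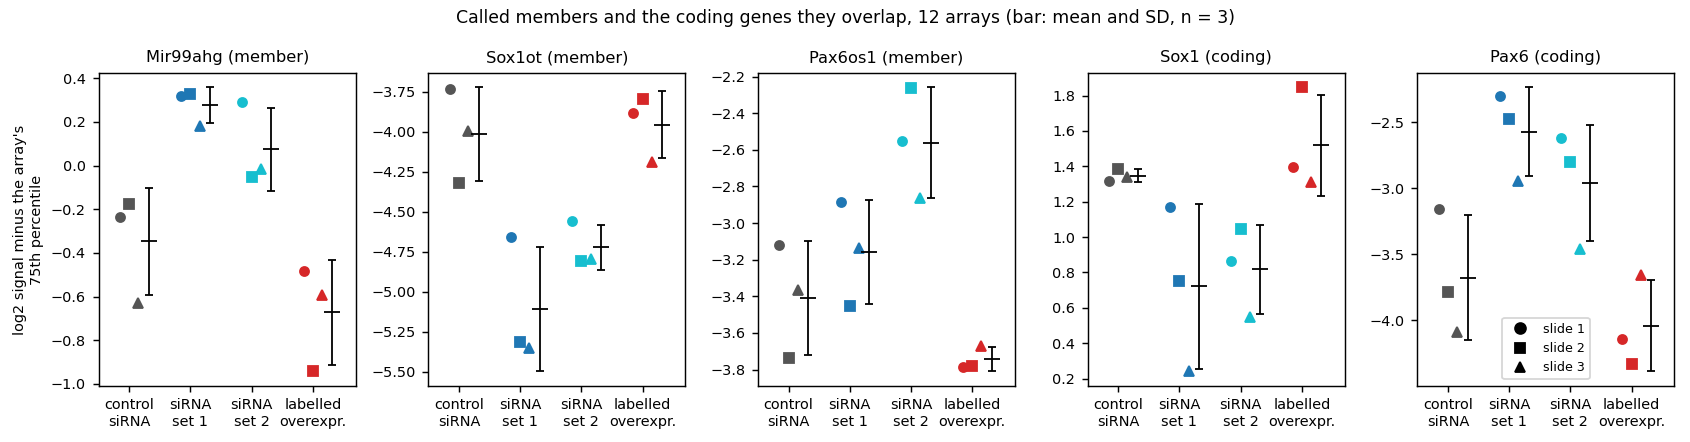
Level of 3 called members and of 1 Sox1 and 1 Pax6 probe, as log2 signal minus the array's 75th percentile, on the 12 arrays (points, with the slide as symbol), with each group's mean and SD (n = 3). The Pax6 probe drawn is the other one of the text, whose set2 and overexpression arrays overlap control. Sox1ot lies near −4 in control and labelled overexpression and below −4.5 in all 6 siRNA arrays, while Mir99ahg, Pax6os1 and Pax6 have their lowest group means with labelled overexpression.

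The comparison of the labelled overexpression arrays with the siRNA average, by label the gain and loss ends of the design, gave these 3 calls among 337 members. Between these ends the Dmrta2 probe gave −0.03 ± 0.15 (limma adjusted p = 0.98). Of all 28546 probes tested, 1.21% were called, so the members' share was near the background. Sox1ot was the 1 higher (background 0.708%) and Mir99ahg and Pax6os1 the 2 lower (background 0.497%). At an unadjusted p under 0.05 were 39 members (background 10.6%). The arrays of both sides did not overlap in 17 members (background 5.97%). With the slide as a block 4 members were called (background 2.04%). The added one was the unnamed NR_002873, at −5.78, −6.42 and −6.00 with overexpression against −5.27 to −5.75 over the siRNA arrays (−0.51 ± 0.18, limma adjusted p = 0.30 without the block and 0.045 with it). Rreb1, a non-coding transcript of the gene for a zinc finger transcription factor, read −1.15, −1.15 and −1.19 with overexpression, −1.45 to −1.95 over the 6 siRNA arrays and −1.21, −1.37 and −1.06 in control. Its siRNA arrays were below all others, by 0.50 ± 0.13 from overexpression (limma adjusted p = 0.11).

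Against control, no member was called for the average of both siRNA sets by limma, where 0.284% of all probes tested were. At an unadjusted p under 0.05 were 24 members (background 9.46%), and the 6 siRNA arrays did not overlap the 3 control arrays in 13 members (background 4.32%). With the slide as a block 1 member, Sox1ot, was called (background 0.683%). The member differences had a median of −0.045 and ran from −0.90 to 0.55, with 90% of them between −0.40 and 0.37. No member differed by over 2-fold, against 1.36% of all probes tested and 0.477% of those well above background on all 12 arrays, as the members are. Beside Sox1ot, the unnamed NR_027875 had the lowest difference, from −2.79, −2.65 and −2.75 in control to −2.95 to −4.22 over the siRNA arrays (−0.69 ± 0.26, limma adjusted p = 0.42). The lncRNA probes had a median of −0.05, the transcribed pseudogenes −0.04 and the unnamed probes −0.05, beside −0.02 over all probes tested.

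Taken alone, set1 gave no member called by limma (background 0.14%), 16 at an unadjusted p under 0.05 (background 7.81%) and 33 without overlap (background 12.3%). With the slide as a block Sox1ot was the 1 call (background 0.319%). A930004D18Rik read −4.63, −4.31 and −4.58 in control and −3.69, −4.25 and −3.88 with set1 (0.57 ± 0.18, limma adjusted p = 0.38), and all its set1 arrays were above control.

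With set2, no member was called by limma either (background 0.175%, and 0.876% with the slide as a block), while 38 had an unadjusted p under 0.05 (background 10.3%) and 66 did not overlap control (background 15.6%). E530001F21Rik, a transcribed pseudogene, read −4.19, −3.81 and −4.16 in control and −3.25, −3.36 and −3.38 with set2 (0.72 ± 0.15, limma adjusted p = 0.089). Its set1 and overexpression arrays all read below −3.8. Zbtb11os1, an RNA transcribed opposite to the zinc finger gene Zbtb11 and singled out after its values were seen, stood at −1.26 ± 0.05 with set2 against −1.78 ± 0.14 in control, −1.79 ± 0.02 with set1 and −1.83 ± 0.05 with overexpression (mean ± SD, n = 3). The 4 groups accounted for 0.927 of its variance, the highest share of any member. Neither passed the threshold. The unnamed NR_015476 read 1.45, 1.88 and 1.36 with set2 and 1.02, 1.14 and 1.03 in control (0.50 ± 0.16, limma adjusted p = 0.27), without overlap.

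Both siRNA sets aim at the same genes, and their direct comparison gave no member and no probe at all called by limma (0 of 28546, background 0%), with 31 members at an unadjusted p under 0.05 (background 7.89%) and 46 without overlap (background 12%). With the slide as a block the members called were again 0 (background 0.035%). Differences of over 2-fold between the sets were seen in 3 members (0.89%), both Xist probes and the unnamed NR_001592. Of all probes well above background on every array, 0.609% differed by as much. NR_001592 read 1.91, −0.09 and −0.02 with set1 and −0.56, −0.67 and −0.07 with set2, so the difference (−1.03 ± 0.44, limma adjusted p = 0.60) rests mostly on the first set1 array. That array also had the highest erythroid and mesenchyme marker sums of the 12, 18.7 and 7.04 times the 75th percentile, and their part in this value was not tested. C030034I22Rik was lower with set2 by both of its probes (−0.87 ± 0.26 and −0.68 ± 0.23, limma adjusted p = 0.35 and 0.44), without overlap of the sets in either.

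Labelled overexpression against control gave no member called by limma (background 0.14%, and 0.165% with the slide as a block), 5 at an unadjusted p under 0.05 (background 3.69%) and 13 without overlap (background 6.64%). Of the member differences 90% lay between −0.35 and 0.24, and their median was −0.018. Over all probes well above background on every array, 90% lay between −0.30 and 0.34. The lowest adjusted p of a member was 0.76, for the pseudogene Ube2d-ps (−0.40 ± 0.13). NR_001592 was the largest rise in level, from 0.15, −0.22 and 0.04 in control to 1.02, 0.72 and 1.20 (0.99 ± 0.44, limma adjusted p = 1.00), and Gm9767 went from −5.45, −4.87 and −4.65 to −4.26, −4.09 and −4.09 (0.85 ± 0.33, adjusted p = 1.00). The overexpression arrays were above all controls in both, and neither was called.

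**Figure D2:**
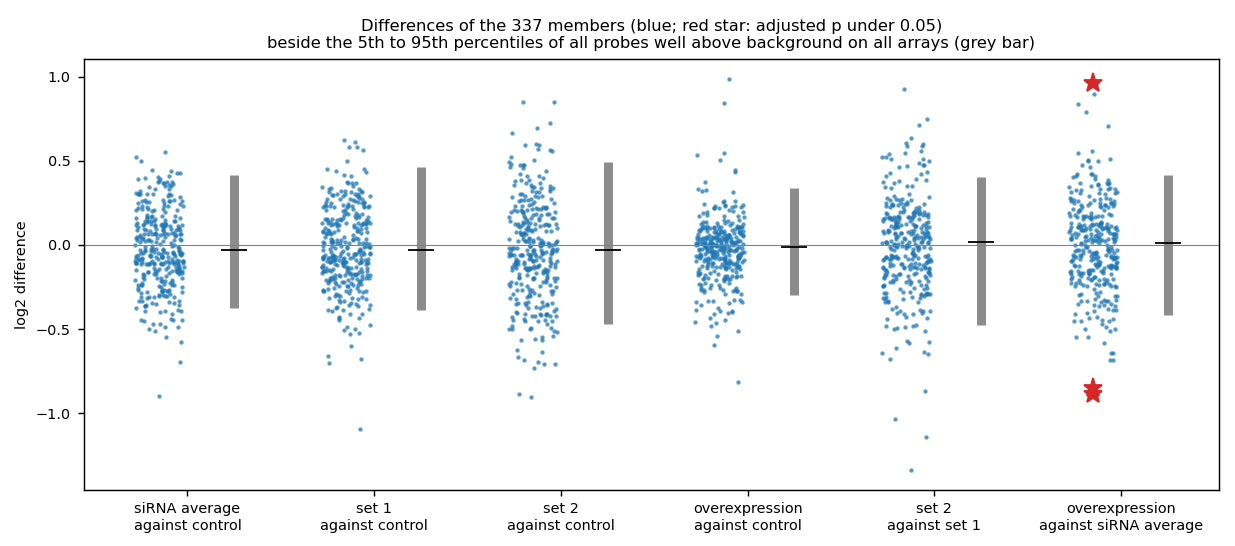
Log2 difference of each of the 337 members (points, red stars for an adjusted p under 0.05) in 6 comparisons, beside the 5th to 95th percentiles and the median of all 24961 probes well above background on every array (grey bar, black line). The 3 calls are all between labelled overexpression and the siRNA average. The members and all these probes alike have their narrowest 5th to 95th percentile range in labelled overexpression against control.

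Named families were described by counts and medians, with no call in any list for the siRNA average, either set or overexpression against control. Lists were filled by gene name, so the 44 unnamed probes could enter none. A list may therefore lack a member that belongs to it. Non-coding RNAs of imprinted domains, transcribed from 1 parental allele, had 12 member probes for 9 genes. In the siRNA average 10 of the 12 were below control, with a median of −0.18 beside −0.02 over all probes tested. The 3 probes for Meg3, the maternally expressed RNA of the Dlk1 domain, gave −0.11, −0.45 and −0.20, and Mirg of the same domain −0.58. Kcnq1ot1, which silences neighbours in cis, gave −0.31 and −0.30, and Airn, which does so at Igf2r, −0.14. Gnasas1, antisense to the Gnas locus, stood at −2.94 ± 0.06 in control, −3.32 ± 0.21 with set1 and −3.45 ± 0.17 with set2 (mean ± SD, n = 3), all siRNA arrays below control (−0.45 ± 0.15, limma adjusted p = 0.34). Peg13 (0.02) and Dio3os (0.35) were the members of the list above 0. Of 19 imprinted coding genes 11 were above and 8 below control, with a median of 0.03. With overexpression against control the list's median was −0.07.

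RNAs that host small nucleolar RNAs in their introns, and snoRNAs themselves, had 12 probes for 11 genes, of which 10 were below control in the siRNA average, with a median of −0.13. Snhg16 gave −0.36 and −0.27, Snhg1 −0.19 and Dancr −0.14, and the snoRNA Snord123 was highest with 0.27. Their overexpression median was −0.05. Nuclear and structural RNAs, 13 probes for 8 genes, had a median of 0.04. Malat1, an abundant nuclear speckle RNA, gave −0.28, Neat1, the scaffold of paraspeckles, 0.14, the RNase MRP RNA Rmrp 0.12 and the telomerase RNA Terc −0.11. Tug1 gave 0.38, 0.04 and 0.13 by its 3 probes. Norad gave −0.27, −0.20, −0.17 and 0.07 by 4 probes, of which 1 had no value on the second set1 array, where its only spot carried an outlier mark, and its fit dropped that array.

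Neural RNAs and neighbours of transcription factor genes had 12 probes for 9 genes, 7 above and 5 below control in the siRNA average, with a median of 0.04. Sox1ot and Pax6os1 were the ends of this list, at −0.90 and 0.55. Emx2os, antisense to the homeobox gene Emx2 of the dorsomedial telencephalon, gave 0.36 and 0.25 by its 2 probes, and Pantr1, beside Pou3f3, 0.13. Miat gave −0.11 and Dlx6os2, in the Dlx5 and Dlx6 region, 0.09. Genes listed by name as microRNA hosts had 4 probes. By position, RefSeq places microRNA genes inside 11 member genes, among them Mirg with 10, D7Ertd143e with 7 and Ftx with 3, and only Mir100hg and Mir17hg of the 11 are in this list. Beside Mir99ahg (0.52) and Mir100hg (0.22), Mir17hg, the host of the miR-17 cluster, gave −0.40 over 11 arrays (its spot on the second set1 array carried an outlier mark and the fit dropped it) and Mirt1 −0.07. With overexpression against control Mir99ahg, Mir100hg and Mir17hg gave −0.33, −0.47 and −0.33, and Mirt1 0.43. RNAs linked to p53, 9 probes for 4 genes that include Meg3, Tug1, Neat1 and Pvt1, had a median of −0.05.

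**Figure D3:**
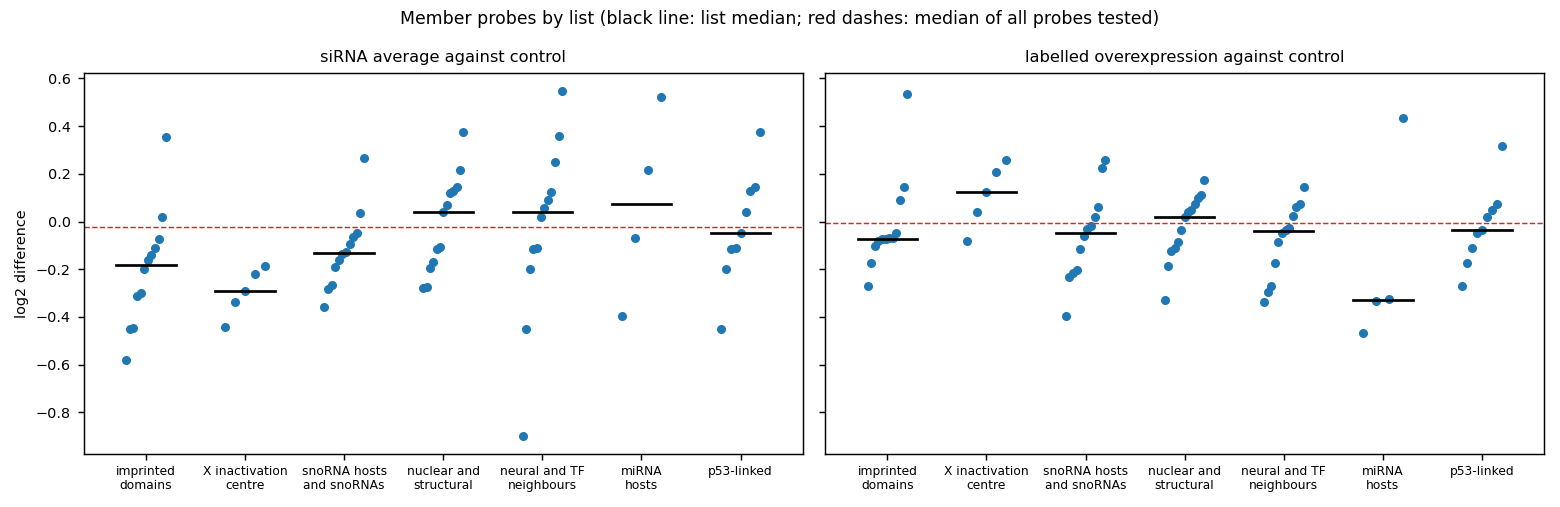
Log2 difference from control of each member probe, by list, for the siRNA average and for labelled overexpression (black line, list median; red dashes, median of all probes tested). The imprinted and snoRNA host lists have 10 of 12 probes below 0 in the siRNA average, and the neural list spans from Sox1ot at −0.90 to Pax6os1 at 0.55.

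Xist, the RNA that coats the inactive X chromosome of female cells, was read by 2 member probes. The first read 1.49, 0.83 and 1.45 in control, 1.77, 1.05 and 1.64 with set1, 0.63, 0.77 and −0.35 with set2 and 1.68, 0.96 and 1.75 with overexpression. The other read −0.41, −0.87 and −0.17, then 0.09, −0.19 and −0.01, then −1.20, −0.997 and −1.93, and then −0.01, −0.95 and 0.28. By both, the 3 set2 arrays were the lowest of the 12. Set2 was below set1 by 2.20-fold and 2.53-fold (−1.14 ± 0.34 and −1.34 ± 0.33, limma adjusted p = 0.35 and 0.23), with differences of −1.14, −0.28 and −1.997 on the 3 slides by the first probe and −1.28, −0.81 and −1.92 by the other. Neither probe was called. Jpx, an activator of Xist, was also lower with set2 than with set1 (−0.64 ± 0.22, limma adjusted p = 0.44), and the 2 Ftx probes gave −0.41 and −0.57 for set2 against control.

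Coding genes of the Y chromosome had the opposite order. By 1 probe each, Ddx3y, Eif2s3y, Kdm5d and Uty were above control with set2 by 0.63 to 0.91 and above set1 by 1.07 to 1.30, with limma adjusted p from 0.46 to 0.54 for the latter. A further Uty probe read −3.79, −4.54 and −3.56 with set2 and −4.98, −3.40 and −5.40 with set1, so by it the sets overlapped, with set2 below set1 on slide 2. The summed signal of the 4 listed probes ran from 0.42 to 1.13 times the 75th percentile in control, 0.39 to 0.59 with set1, 0.88 to 1.499 with set2 and 0.36 to 0.92 with overexpression. The labels give no sex of the embryos, and the part of the sex of the pooled or single embryos in the Xist values was not tested.

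**Figure D4:**
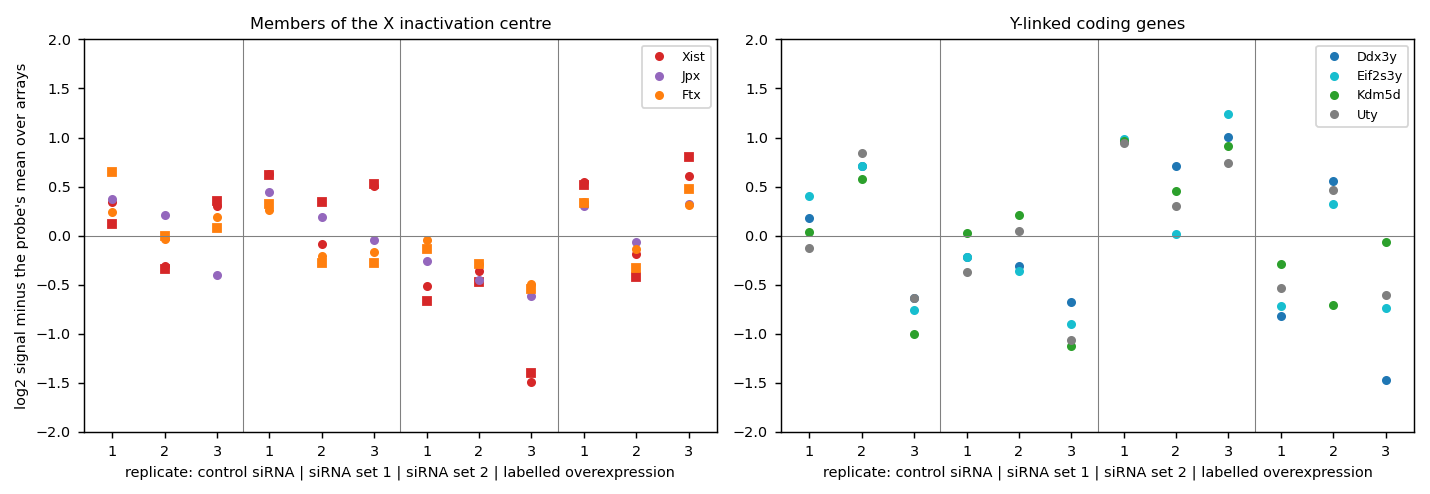
Left, log2 signal of the 5 member probes of the X inactivation centre, minus each probe's mean over the arrays, on the 12 arrays; right, the same for 4 Y-linked coding genes. Xist is lowest on the 3 set2 arrays, where the Y-linked genes are at or above their mean, and circles and squares are different probes of a gene.

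The 3 slides carried 4 arrays each, 1 per group. A group had the same place on every slide, so group and place cannot be told apart. The slide accounted for a median share of 0.302 of a member's variance and the 4 groups for 0.265, against 0.298 and 0.256 over all probes well above background on every array. In 10 members (2.97%, against 3.57% of those probes) the slide accounted for more than 0.9, and in all 10 the second slide was below the others. It lay below both other slides on every array in 40 members (11.9%) and above in 4 (1.19%). These patterns were not counted over all probes, so they cannot be read as particular to the members. Gm833 averaged −2.002, −3.35 and −2.03 on slides 1 to 3, and the pseudogene Gm6787 −2.24, −4.36 and −1.79. Airn averaged −0.56, −1.34 and −0.60, and Dlx6os2 −2.06, −2.81 and −2.08. In these members the 4 groups lay close together within each slide. For Airn slide 2 lay 0.76 below the mean of slides 1 and 3 (−0.76), beside a difference of −0.14 between the siRNA average and control. Sox1ot, Mir99ahg and Pax6os1 kept the sign of their difference between overexpression and the siRNA average on each slide, as given above.

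**Figure D5:**
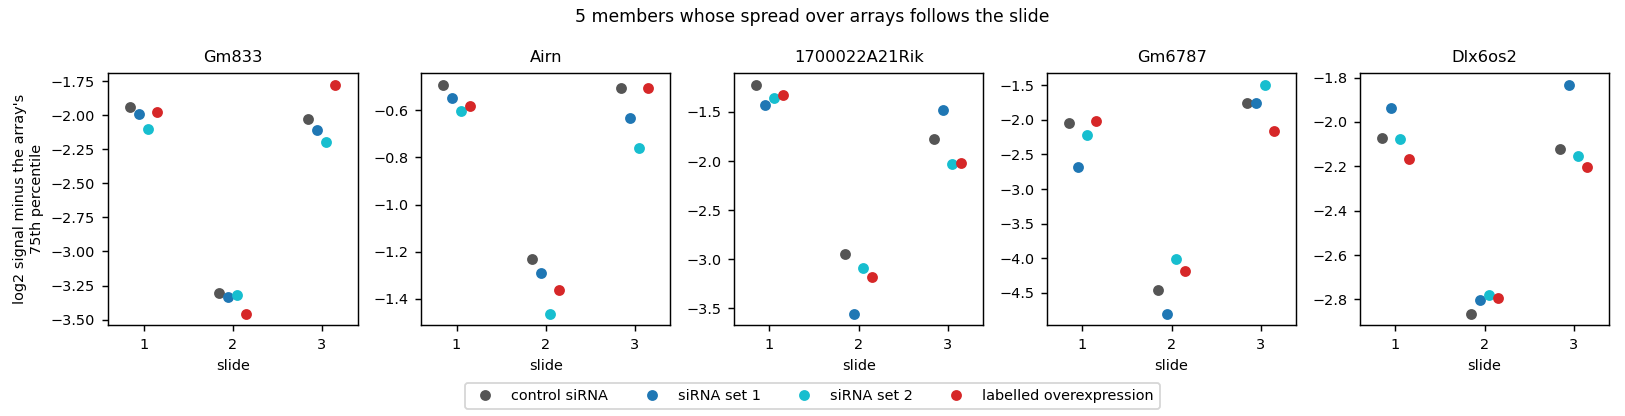
Level of 5 members by slide (log2 signal minus the array's 75th percentile, 1 point per array, coloured by group). On slide 2 all 4 groups fall below slides 1 and 3, by about 0.7 for Airn and Dlx6os2 and over 2 for Gm6787.

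For 39 member genes more than 1 probe was a member, which gives a check of a difference within the same RNA samples. All probes of a gene had the same sign in the siRNA average against control for 29 of the 39, in overexpression against control for 25, and in overexpression against the siRNA average for 30. Mir99ahg and Pax6os1 had 1 member probe each, as had Sox1ot. The spread within a group had a median SD of 0.272 over members, beside 0.248 over all probes well above background on every array.

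Just inside the rule lay 6430411K18Rik, whose dimmest array read −6.44, and Hnf4aos with −6.25. Just outside, well above background on 11 arrays, were 12 probes, such as Gm5434 with −6.85 on its dimmest array. Of the 250 NR_ probes outside the rule, 61 were well above background on 3 or more arrays and were tested, and limma called 0 of them in each of the 6 comparisons, with between 1 and 5 of them at an unadjusted p under 0.05. None was well above background on every array of 1 treated group and on no control array, or the reverse.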

How the data were processed

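Total RNA of 12 samples (0.1 µg each, Cy3-labelled) was hybridised to one-colour Agilent arrays of 4 groups, 3 replicates each, on 3 slides. Per the file headers, the authors extracted spot intensity with Agilent Feature Extraction 10.5.1.1, and corrected it for background and spatial trend within each array; the deposited processed intensity has no scaling between arrays; the array annotation names mm9. The deposited value table holds log2 values with no stated scale; set against the scanner values (r at least 0.999 per array) it proved scaled to the 75th percentile and centred per probe, with column medians from −0.130 to 0.0960, and served as an alternative. The detection and outlier marks are other deposited columns of the scanner software. A log2 ratio or fold between groups was computed here, not by the authors.

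Control spots were dropped, as were spots the software marked as outliers (136 to 218 of 43020 per array; 6 member values are missing for this), the log2 processed signal was scaled to each array's 75th percentile, and spots of a probe were averaged. limma 3.58.1 (R 4.3.3; lmFit, eBayes, two-sided, Benjamini-Hochberg) was fitted over all 12 arrays and 28546 probes and tested on simulated data. The siRNA average weights both sets equally. Gene names and sequences were matched by unversioned accession to RefSeq (GRCm38.p6). Members, lists and alternatives were chosen with earlier results of these data known. Named are called members, the 5 largest rises and falls without overlap per comparison (not all with values in the text), the members of lists, and probes with partners. The replicate number is the slide in the file headers, and same-numbered arrays deviated together (correlations of 0.0122 to 0.596 over 18 pairs, 17 above 0.1). The number was taken to pair the samples only in the slide block. The main fit had no block, so its errors and adjusted p-values ignore that pairing. The p-values measure the spread between replicates the series calls independent. Normexp background correction, quantile normalization, the deposited table, other filters, 1 probe per accession, only the groups compared, the slide block and leaving out each array were the alternatives.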

Additional observations from a re-analysis of the deposited data

Results flagged for a closer look

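For 3 members the effect of the labelled overexpression and that of the siRNAs, measured against the same control arrays, differed by the test of the difference itself. The difference of effects was −0.85 for Mir99ahg (limma adjusted p = 0.023), 0.96 for Sox1ot (adjusted p = 0.038) and −0.89 for Pax6os1 (adjusted p = 0.047), on the log2 scale, with the same sign on 3 of 3 slides in each. Since both effects use the same controls, these tests are those of the overexpression arrays against the siRNA arrays.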

How the results depend on the processing

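Of 60 named differences, 59 kept their direction in all 16 settings tried for single probes (normexp background correction, quantile normalization, the deposited table, the replicate block and each of the 12 arrays left out); NR_002873 between overexpression and the siRNA average reversed with normexp (0.16, adjusted p = 0.54). The 3 calls between overexpression and the siRNA average became 1 with normexp, 1 with no filter on dim probes, 1 with only the groups compared in the fit, and 0 to 3 without each array in turn. They were lost altogether without any 1 of the overexpression replicates, the third set1 replicate or the third set2 replicate, and fell to 1 without the first or second set2 or the third control replicate. Over these 16 settings Mir99ahg passed the threshold in 11 (adjusted p 0.012 to 0.118), Sox1ot in 6 (0.014 to 0.197) and Pax6os1 in 5 (0.039 to 0.259). The size of the difference ran from −0.94 to −0.71 for Mir99ahg, 0.47 to 1.08 for Sox1ot and −0.96 to −0.40 for Pax6os1. With arrays left out it ran from 0.88 to 1.08 for Sox1ot and −0.96 to −0.81 for Pax6os1. Their smallest sizes thus came with another processing of the signal. For Sox1ot in the siRNA average against control the range was −1.05 to −0.36.

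With the replicate block, which pairs the arrays of a slide, the siRNA average against control had 1 called member and set1 against control 1 (Sox1ot in both), and overexpression against the siRNA average 4; the block changed no other count of called members. Normexp with bright local backgrounds kept as they are, an alternative chosen after seeing the data, gave 232 called members for overexpression against control and 242 against the siRNA average, where 19427 and 20684 of all probes were called; 6, 3 and 24 spots of 3 arrays had a local background over 10 times the median. The cause was not tested. A member near the detection limit has signal close to background on every array, which limits its precision.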
